A study of Mus musculus with 10 samples.

Results

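The genes described here are the mouse genes whose symbol is Spata or Tex followed by a number, without *Spata16*, *Spata22*, *Tex11*, *Tex12*, *Tex15* and *Tex101*. These symbols stand for spermatogenesis associated and testis expressed. The rule found 63 genes among the 20007 of the adult testis table and 44 genes among the 17816 of the day 7 table. All 44 are among the 63, and 19 were listed only in the adult table. The symbols share a history of naming and not a sequence or a function, so the members were read in 5 groups by known role. There were 12 members known from many tissues, 9 reported from spermatogonia, 10 placed in the sperm tail, 9 placed in the sperm head or acrosome, and 23 to which no role was assigned.

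RNA was measured by sequencing in Sertoli cells at day 7 after birth and in adult testis. The day 7 cells were isolated from tubules, cultured and passaged, and came from *Rnf20* Flox/Flox mice, which the labels call WT, and from Amh-Rnf20-/- mice, with 2 samples a group analysed here where the methods give more. That origin is taken from the titles and the methods, while the growth protocol in the labels speaks of adult tissue for every sample. Cre driven by the *Amh* promoter acts in Sertoli cells, so germ cells keep the floxed gene, and the controls carry the floxed alleles without loss of *Rnf20*. The adult samples were 3 labelled WT and 3 labelled as conditional knockout of RNF20, an experiment not described in the methods, with no floxed allele, Cre or exact age given in their labels. The methods speak of separate individuals for day 7. For the adult samples nothing says that those of 1 group came from separate mice, so their p-values measure only the spread between these samples.

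Spermatogenesis runs from spermatogonia through meiosis in spermatocytes to spermatids, which build the acrosome, condense the nucleus and grow the tail. Sertoli cells are the somatic cells of the tubule that hold and feed all of these stages. Many of the genes considered here are switched on only in spermatocytes or spermatids, whereas others, such as *Spata2* and *Tex264*, are used by most cells and carry a testis name because they were first cloned there. In bulk RNA of this kind, fewer cells of a type and less RNA per cell cannot be told apart.

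The members' promoters differed in their content of CpG, the dinucleotide that is depleted from most of the mouse genome and kept in the promoters of widely used genes. RefSeq promoter windows of 300 bases on GRCm38.p6, from 250 before to 50 after a gene's start, were matched for 56 of the 63 members by 68 windows. Windows of 4 members are shown because they include the window with the highest ratio among the members, windows with few CpG and a pair of paralogs. Capitals mark each CG.
Spata2: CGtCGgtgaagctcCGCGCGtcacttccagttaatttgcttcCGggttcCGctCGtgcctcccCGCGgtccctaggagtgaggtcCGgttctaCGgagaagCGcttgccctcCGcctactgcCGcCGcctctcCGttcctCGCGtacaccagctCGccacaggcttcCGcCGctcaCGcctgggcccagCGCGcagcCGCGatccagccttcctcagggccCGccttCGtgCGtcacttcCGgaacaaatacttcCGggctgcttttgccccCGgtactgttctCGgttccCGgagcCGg
Tex50: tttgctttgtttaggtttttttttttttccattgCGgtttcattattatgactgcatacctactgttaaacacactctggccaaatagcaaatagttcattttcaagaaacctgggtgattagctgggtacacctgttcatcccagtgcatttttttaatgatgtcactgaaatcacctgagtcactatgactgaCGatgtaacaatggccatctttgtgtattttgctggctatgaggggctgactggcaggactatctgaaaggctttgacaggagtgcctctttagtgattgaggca
Tex19.1: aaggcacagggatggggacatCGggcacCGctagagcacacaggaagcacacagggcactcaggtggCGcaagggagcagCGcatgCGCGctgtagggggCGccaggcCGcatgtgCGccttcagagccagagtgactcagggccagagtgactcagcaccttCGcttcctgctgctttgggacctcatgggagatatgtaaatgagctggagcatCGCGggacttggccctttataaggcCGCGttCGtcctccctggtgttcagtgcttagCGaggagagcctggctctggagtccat
Tex19.2: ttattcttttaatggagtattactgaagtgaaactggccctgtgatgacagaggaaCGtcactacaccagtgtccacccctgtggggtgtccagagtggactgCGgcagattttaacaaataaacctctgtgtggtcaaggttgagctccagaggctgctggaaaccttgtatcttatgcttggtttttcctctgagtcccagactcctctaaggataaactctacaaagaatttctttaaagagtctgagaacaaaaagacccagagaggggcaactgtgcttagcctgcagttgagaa
The window of *Spata2*, a gene of many tissues, lay at chr2:167492825-167493124 on the minus strand and held 36 CpG, 1.12 times the number expected from its C and G content. That of *Tex50*, a gene without an assigned role, lay at chr1:161159265-161159564 on the minus strand and held 2 CpG, 0.165 times the expected number. *Tex19.1*, at chr11:121145893-121146192 on the plus strand, held 16 CpG and a ratio of 0.575, while its paralog *Tex19.2*, at chr11:121118628-121118927 on the minus strand, held 2 CpG and a ratio of 0.130. The 2 Tex19 genes lie 27465 bases apart and are transcribed away from each other.

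The ratio was compared between the role groups as a description, with no test. The median CpG ratio was 0.799 over 13 windows of members known from many tissues, 0.357 over 8 windows of spermatogonial members, 0.210 over 11 windows of sperm tail members, 0.144 over 8 windows of sperm head members and 0.223 over 28 windows of members with no role assigned. It was 0.384 over all 32851 windows of the table. A ratio of at least 0.6 was reached by 11 of the 13 windows in the first group and by 0 of the 8 windows of sperm head members, against 35.8% of all windows. The other windows of the first group were that of *Spata20*, at 0.179, and a second one of *Spata13*, at 0.5. Sperm tail members reached 0.6 in 4 windows, those of *Spata6*, *Spata17*, *Spata18* and *Spata33*, spermatogonial members in 2, those of *Tex13b* and *Tex14*, and members with no role assigned in 4, of *Spata1*, *Tex26* and *Tex9*. The ranges of the groups overlapped, since the many-tissue windows ran from 0.179 to 1.12 and the tail windows from 0 to 1.03.

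A search of both strands for 5 sets of letters linked to testis transcription factors found each of them in at most 9 of the 68 windows. The full cyclic AMP response element TGACGTCA stood in 1 window, that of *Spata7*, or 1.47% against 1.79% of all windows. Its part TGACGT, which overlaps the full element, stood in 9 windows, 13.2% against 7.51%. The Myb letters AACTGCC, the RFX letters GTTGCCA and the E-box CACGTG stood in 4 windows each, 5.88% in every case against 4.12%, 4.38% and 7.15% of all windows. The 4 windows with the Myb letters belonged to *Tex14*, *Spata7*, *Spata31* and *Tex47*. These are matches of letters in a short window and no measure of binding.

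Members were scattered over the genome with a few clusters. Of the 9 spermatogonial members, 6 are on the X chromosome, and all 5 *Spata31* genes are on chromosome 13. Near-identical copies touch a few of the values below, because reads shared by copies are divided by the estimation of counts. Of the stretches of 50 bases in the transcripts of *Spata31d1b*, 24.9% also occur in *Spata31d1a*, and 2.67% of those of *Tex19.1* occur in *Tex19.2*. For *Tex30*, 13.5% occur in the gene model Gm29247, for *Tex24*, 32.4% occur in Gm6853, and for *Spata24*, 32.5% occur in another model of the same name, so these 3 levels are uncertain.

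Depth was 17477268 to 17705347 counts per sample at day 7 and 15431912 to 16574144 in adult testis. The targeted gene, *Rnf20*, read 16.64 and 16.01 FPKM in the day 7 controls and 10.25 and 12.58 FPKM in the knockouts. It was lower in both, with a log2 fold change of -0.49 and an adjusted p of 0.222 in edgeR's quasi-likelihood test. FPKM stands for fragments per kilobase of transcript, scaled to the depth of the sample. In adult testis it read 4.89, 3.32 and 4.09 FPKM in the controls and 9.16, 5.76 and 9.85 FPKM in the samples labelled as knockout, with a log2 fold change of 0.12 and an adjusted p of 0.688 on TMM scaling and 0.97 and 0.0168 on total counts. It was thus not lower on either scaling, although the label names its knockout. If these mice carried the Cre of the day 7 mice, only Sertoli cells would lose the gene. RNA of whole testis cannot then decide on the label by itself, and adult directions below are given as the labels have them. Labelled knockout 1 stood apart in the adult table. Its 14 spermatid markers summed to 5.24 FPKM, against 188 and 149 FPKM in labelled knockouts 2 and 3 and 132308 to 201661 FPKM in the controls, and its germ cell gene *Ddx4* read 0.93 FPKM against 21.37 and 33.6 FPKM. Its counts differed from those of labelled knockouts 2 and 3 by a chi-square per degree of freedom of 88.1 and 118, against 21.4 between those 2 and 13.7 to 17.6 between controls. Adult results are therefore also given without it.

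In adult testis, Spata and Tex transcripts were a visible part of the control RNA and scarce in the samples labelled as knockout. The 63 members took 1.61%, 1.71% and 1.62% of all counts in the 3 controls, and 0.0459%, 0.0904% and 0.101% in labelled knockouts 1, 2 and 3. The control mean was 35.9, 18.2 and 16.3 times the share in these samples. Every member had counts in every control. In labelled knockout 1, 29 members had 0 counts, in labelled knockout 2 only *Tex52* had none, and in labelled knockout 3 there were 4 such members.

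All 63 members passed the filter on low values in the adult table. A gene was called when its log2 fold change was over 1 in size and its adjusted p was under 0.001 in edgeR's quasi-likelihood test, the thresholds of the study. By that rule 33 members fell and 1 rose, where 23.7% of all 15919 genes tested fell and 23.0% rose. At an adjusted p under 0.05 with no fold threshold, 55 members were lower and 3 higher, against 40.6% and 40.9% of all genes. After TMM scaling, every labelled knockout lay on one side of every control for 58 members that were lower and 3 that were higher, against 43.1% and 42.4% of all genes. The median log2 fold change of the members was -6.56, beside 0.011 for all genes.

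Both the choice of library and the scaling bear on these counts. Without labelled knockout 1, 54 members fell and 2 rose, beside 31.6% and 33.1% of all genes, and the members' median was -6.07. Without control 1, control 2 or control 3 the members that fell numbered 15, 14 and 14, beside 11.3%, 10.1% and 10.3% of all genes. Without labelled knockouts 2 or 3 they numbered 20 and 16, beside 10.6% and 12.3%. Scaling by total counts instead of TMM moved the median of all genes to 0.87, and members with small negative changes on TMM scaling, *Tex264*, *Tex261* and *Tex13b*, had positive ones on total counts. With that scaling 32 members fell and 2 rose, beside 14.1% and 36.7% of all genes.

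**Figure D1:**
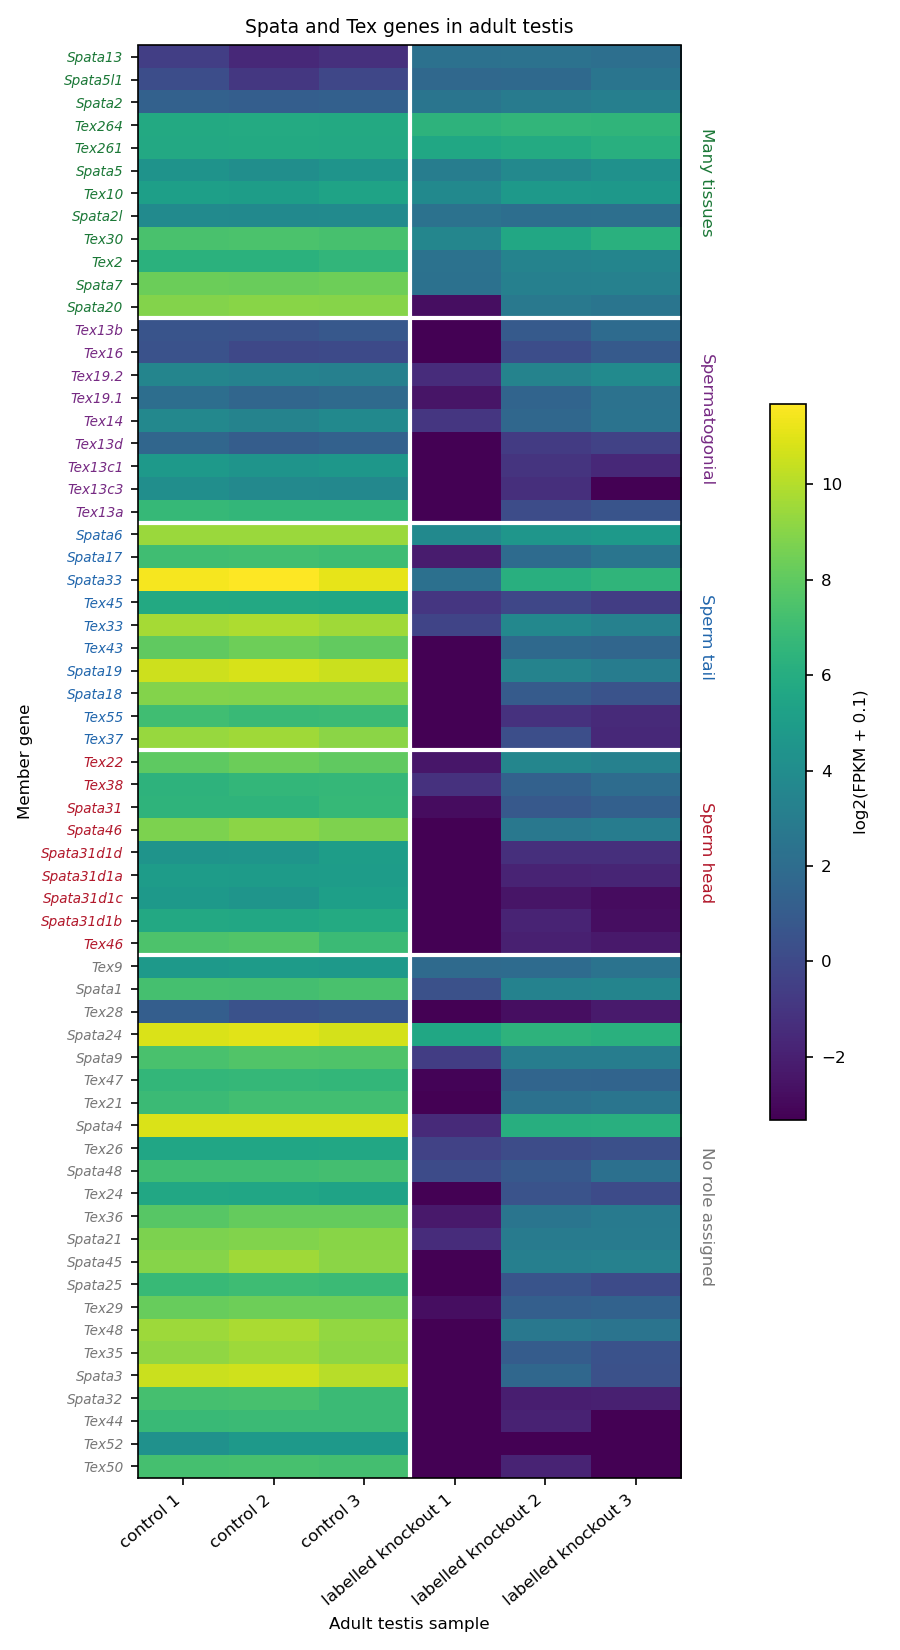
Level of each of the 63 members in the 6 adult testis samples as log2(FPKM + 0.1), with the 3 controls on the left, the 3 samples labelled as knockout on the right, and members grouped and coloured by role. Most rows are bright in the controls and dark on the right, darkest in labelled knockout 1, where 29 members had 0 counts; the upper rows of the many-tissue group keep or gain level.

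The 10 sperm tail members were the most abundant of the groups in control testis and were lower in every sample labelled as knockout. Their median control level was 558 FPKM, and 6 fell, beside 23.7% of all genes. The other 4 were lower at an adjusted p of at most 0.00177. All 10 fell without labelled knockout 1, beside 31.6% of all genes. Without labelled knockout 2 there were 4, beside 10.6%. Without labelled knockout 3 or any control there were 3, beside 10.1% to 12.3%. *Spata33*, which ties the phosphatase calcineurin to sperm mitochondria, was the most abundant member of all and is transcribed from chr8:123212837-123222045. It read 2874.80, 3320.76 and 2283.28 FPKM in the controls and 4.57, 69.99 and 90.78 FPKM in labelled knockouts 1, 2 and 3. The control mean of 2826 ± 520 FPKM (SD, n = 3) was 51.3 times the mean of 55.1 ± 45.0 FPKM (SD, n = 3), with a log2 fold change of -6.32 ± 0.72 (SE) and an adjusted p of 0.000331.

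*Spata19*, a protein of the mitochondrial sheath in the midpiece, read 1531.41, 1763.40 and 1430.47 FPKM in controls and 0, 10.23 and 7.92 FPKM in the labelled knockouts. It was far lower in all 3 and missed the threshold, with a log2 fold change of -8.94 ± 1.51 (SE) and an adjusted p of 0.00177. Without labelled knockout 1 that change was -8.22 with an adjusted p of 1.83e-08. *Tex33*, a sperm tail protein whose biochemical role is not settled, behaved likewise, from 806.86, 930.99 and 740.45 FPKM to 0.74, 12.65 and 9.50 FPKM.

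*Spata6*, needed for the connecting piece between head and tail, kept the largest part of its level within the tail group in labelled knockout 1. Its controls read 696.73, 705.24 and 685.04 FPKM and the labelled knockouts 13.98, 23.45 and 27.09 FPKM, which is 2.01%, 3.37% and 3.89% of the control mean. It fell by 5.83 ± 0.34 (SE) on the log2 scale, with an adjusted p of 3.86e-05. *Tex37* was at the other end, with 668.96, 740.92 and 533.06 FPKM in controls and 0, 1.13 and 0.23 FPKM, or 0, 10 and 2 counts, in the labelled knockouts. Its control mean was 1429 times the other mean. Its log2 fold change of -11.29 was -13.10 without labelled knockout 2 and -10.61 without labelled knockout 1. *Spata18*, which acts in mitochondrial quality control, *Tex55*, *Tex43*, a protein of the sperm tail's microtubule doublets, *Tex45* and *Spata17* lay between these, with control means of 52.5 FPKM or more and log2 fold changes from -10.16 for *Tex55* to -5.98 for *Spata17*.

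The 9 sperm head members showed the same direction at lower control levels. Their median control level was 94.3 FPKM, and 6 fell, beside 23.7% of all genes. *Spata46*, *Spata31* and *Tex22* were lower at adjusted p of 0.00178, 0.00192 and 0.00484. All 9 fell without labelled knockout 1, beside 31.6% of all genes. Without labelled knockout 2 there were 3, beside 10.6%. Without labelled knockout 3 or any control there were 2, beside 10.1% to 12.3%. *Spata46*, which has a part in the shape of the sperm head and in fusion with the egg, read 426.15, 540.92 and 451.55 FPKM in controls and 0, 6.34 and 7.87 FPKM in the labelled knockouts. *Tex22*, found at the acrosome, read 246.82, 319.17 and 264.59 FPKM and then 0.09, 11.57 and 9.80 FPKM. The highest labelled knockout value of the pair, that of *Tex22* in labelled knockout 2, was 4.18% of its control mean.

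*Tex38*, a partner of a palmitoyl transferase of spermatids, read 82.07, 100.28 and 101.00 FPKM in controls and 0.34, 2.39 and 3.83 FPKM in the labelled knockouts, and fell by 6.20 ± 0.67 (SE) on the log2 scale, with an adjusted p of 0.000266. *Tex46*, required for the sperm head to form and to meet the egg, read 184.63, 194.56 and 118.83 FPKM in controls and 0, 0.15 and 0.10 FPKM in the labelled knockouts, and had 3401 counts over the 3 controls and 2 counts over the labelled knockouts. That is a ratio of 1644 per count sequenced, with an exact 95% counting interval of 455 to 13581. The 5 *Spata31* genes, a family made in spermatids, all had control values of 22.03 FPKM or more and labelled knockout values of 2.35 FPKM or less. Among them *Spata31* had the highest values, with 0.04, 1.74 and 2.35 FPKM, while *Spata31d1c* had 0, 0.08 and 0.04 FPKM and *Spata31d1b* had 0, 0.18 and 0.05 FPKM. The counting interval covers counting error only and not the spread between samples.

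The 23 members with no role assigned ran from 1.66 to 1859 FPKM in their control means, and every one of them was lower in every sample labelled as knockout than in every control. Of all genes, 43.1% were lower in this way on TMM-scaled counts. By the call 15 of the 23 fell, beside 23.7% of all genes, and the largest adjusted p of the group was 0.0136. All 23 fell without labelled knockout 1, beside 31.6%. Without labelled knockout 2 or 3 there were 8, beside 10.6% and 12.3%. Without control 1 there were 7, beside 11.3%, and without control 2 or 3 there were 6, beside 10.1% and 10.3%. *Tex52* and *Tex50* had the fewest counts in the labelled knockouts. *Tex52*, at chr6:128375510-128385144, had 1013 counts over the controls, or 19.49, 26.70 and 27.68 FPKM, and 0 counts in all 3 labelled knockouts. Set against a floor of 3 counts over the group, it was at least 326-fold lower per count sequenced. *Tex50*, whose promoter window is shown above, read 155.07, 160.01 and 147.93 FPKM in controls and had 0, 2 and 0 counts in the labelled knockouts, a ratio of 2566 with a counting interval of 710.0 to 21193. *Tex44* read 117.40, 121.68 and 121.67 FPKM in controls and 0, 0.17 and 0 FPKM in the labelled knockouts.

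*Spata24*, *Spata4*, *Spata3* and *Tex48* had the highest control levels of this group. *Spata4* read 1841.98, 1823.91 and 1869.80 FPKM in controls and 0.24, 67.69 and 70.11 FPKM in the labelled knockouts, and *Spata24* read 1835.82, 2066.93 and 1673.58 FPKM and then 49.91, 83.38 and 74.96 FPKM. The controls of this pair were alike, but labelled knockout 1 held 0.0130% of the control mean of *Spata4* and 2.69% of that of *Spata24*. *Spata24* fell by 5.62 ± 0.30 (SE) on the log2 scale with an adjusted p of 3.35e-05, whereas *Spata4* changed by -6.22 ± 1.69 (SE) with an adjusted p of 0.0136. Without labelled knockout 1 the change of *Spata4* was -5.50 with an adjusted p of 1.57e-08. *Spata3* read 1424.61, 1577.30 and 1099.32 FPKM and then 0, 3.14 and 1.22 FPKM, and *Tex48* read 729.33, 889.22 and 614.19 FPKM and then 0, 6.34 and 5.50 FPKM. The smallest change of the group was that of *Tex9*, with 27.07, 29.94 and 27.55 FPKM in controls and 3.52, 3.78 and 5.22 FPKM in the labelled knockouts, a fall of 2.67 ± 0.15 (SE) on the log2 scale.

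The 9 spermatogonial members did not move together. *Tex13a*, *Tex13c1* and *Tex13c3*, X-linked genes of the Tex13 family, fell like the sperm genes. They were placed in this group by reports and not by these samples. None of them was listed in the day 7 table, where all 14 spermatogonium markers were. *Tex19.1*, *Tex19.2*, *Tex16* and *Tex13b* were near or above control FPKM in labelled knockouts 2 and 3 and near 0 in labelled knockout 1. By the call 3 members of the group fell, beside 23.7% of all genes. Without labelled knockout 1 there were 5, beside 31.6%. Without labelled knockouts 2 or 3 there were 2 and 1, beside 10.6% and 12.3%. Without any control there were 0, beside 10.1% to 11.3%. *Tex13a*, at chrX:138208158-138209580, read 105.15, 99.65 and 97.84 FPKM in controls and 0, 1.04 and 1.37 FPKM in the labelled knockouts, and fell by 7.89 ± 0.81 (SE) on the log2 scale with an adjusted p of 0.000223. *Tex13c1* read 27.03, 21.43 and 24.27 FPKM and then 0, 0.37 and 0.23 FPKM. *Tex13c3* read 17.23, 13.42 and 12.81 FPKM in controls and 0, 0.30 and 0 FPKM in the labelled knockouts, with 443 counts over the controls and 3 over the labelled knockouts, a ratio of 143 with a counting interval of 48.5 to 695.

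The other pattern was clearest in the Tex19 pair, whose first member restrains retrotransposons in the germ line. *Tex19.2*, at chr11:121116215-121118677, read 11.09, 10.10 and 9.26 FPKM in controls and 0.28, 10.36 and 14.28 FPKM in labelled knockouts 1, 2 and 3. *Tex19.1*, at chr11:121146143-121148314, read 4.19, 3.01 and 3.60 FPKM in controls and 0.08, 2.71 and 4.92 FPKM in the labelled knockouts. Labelled knockout 1 lay below every control for both genes. In FPKM the other labelled knockouts lay within or above the range of the controls or just under it. On TMM-scaled counts every labelled knockout lay below every control for both genes, while on total counts the groups overlapped. On TMM scaling the log2 fold change was -1.19 ± 1.01 (SE) for *Tex19.2* and -1.38 ± 0.98 (SE) for *Tex19.1*, with adjusted p of 0.307 and 0.230. On total counts they were -0.29 for *Tex19.2* and -0.48 for *Tex19.1*, with adjusted p of 0.800 and 0.664. Without labelled knockout 1 the changes on TMM scaling were -0.49 and -0.69, with adjusted p of 0.0204 and 0.0443.

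*Tex13b*, at chrX:140808307-140813433, read 1.40, 1.31 and 1.68 FPKM in controls and 0, 1.79 and 3.69 FPKM in the labelled knockouts. *Tex16* read 1.30, 0.87 and 0.94 FPKM and then 0, 1.05 and 1.78 FPKM. Both were absent from labelled knockout 1 and at or above the middle control in the others, and neither passed the test, with adjusted p of 0.654 and 0.397. The direction of *Tex13b* depended on the library and the scaling, since its log2 fold change was -0.58 on TMM scaling, 0.32 on total counts and 0.13 without labelled knockout 1. *Tex14*, which makes the bridges between dividing germ cells, lay between the patterns. It read 12.58, 10.32 and 13.68 FPKM in controls and 0.41, 3.19 and 5.16 FPKM in the labelled knockouts, which is 3.36%, 26.2% and 42.3% of the control mean. All 3 were below every control, with a log2 fold change of -2.97 ± 0.76 (SE) and an adjusted p of 0.0111. *Tex13d* read 3.05, 2.06 and 2.48 FPKM and then 0, 0.52 and 0.69 FPKM.

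**Figure D2:**
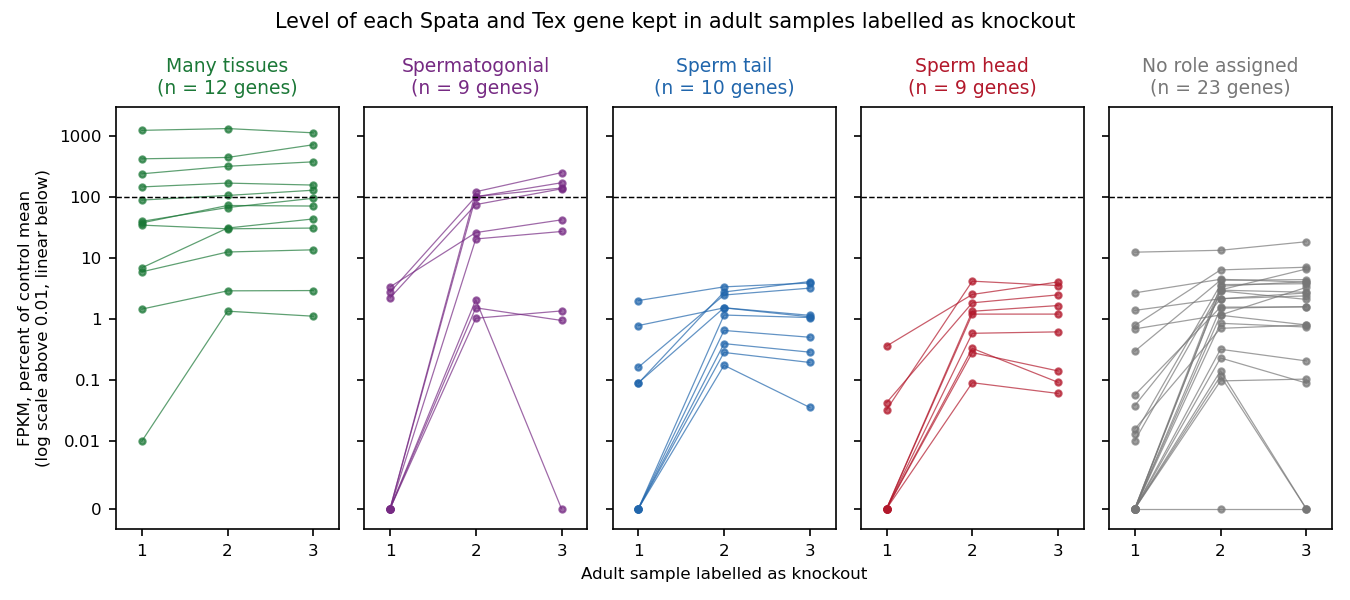
FPKM of each member in the 3 adult samples labelled as knockout as a percentage of its control mean, on an axis that is logarithmic above 0.01 and linear below, 1 panel per role group, with lines joining the points of 1 gene and the dashed line at 100. Sperm tail and head members stay under 5 in every sample, while 3 spermatogonial members exceed 100 in labelled knockout 2 and 4 in labelled knockout 3, with none above 3.36 in labelled knockout 1.

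Germ cell markers also differed between the samples. The 14 spermatogonium markers summed to 307, 274 and 305 FPKM in the controls and to 61.8, 324 and 462 FPKM in labelled knockouts 1, 2 and 3, with 5 of the 14 at 0 in labelled knockout 1. *Uchl1* alone read 49.32, 45.22 and 37.66 FPKM and then 6.72, 189.3 and 297.01 FPKM, and the other 13 summed to 258, 229 and 267 FPKM in controls and to 55, 135 and 165 FPKM in the labelled knockouts. Of the 12 spermatogonium markers tested, 8 had log2 fold changes below 0 and 4 above, with a median of -1.31. By the call 3 rose and 0 fell, beside 23% and 23.7% of all genes. At an adjusted p under 0.05 with no fold threshold, 5 were lower and 3 higher, beside 40.6% and 40.9%. The 12 spermatocyte markers summed to 8243, 8225 and 8028 FPKM and then to 55.5, 462 and 592 FPKM. All 12 had log2 fold changes below 0. Of these, 2 fell by the call, beside 23.7% of all genes, and 10 were lower at an adjusted p under 0.05, beside 40.6%. All 14 spermatid markers were lower, with a median log2 fold change of -9.12. Of these, 8 fell by the call, beside 23.7% of all genes, and 14 were lower at an adjusted p under 0.05, beside 40.6%. Sertoli markers summed to 1169, 929 and 913 FPKM in controls and to 3401, 7737 and 9066 FPKM in the labelled knockouts. Most of the latter was *Clu*, at 1856.83, 4410.99 and 4953.39 FPKM. Of the 20 Sertoli markers, 18 had log2 fold changes above 0 and 2 below. By the call 4 rose and 1 fell, beside 23% and 23.7% of all genes. *Sox9*, *Dhh*, *Fshr*, *Shbg* and *Dmrt1* lay below every control in labelled knockout 1 and above every control in labelled knockouts 2 and 3. Leydig markers summed to between 4019 and 5618 FPKM and then to between 63494 and 88130 FPKM. The part of these shifts in the levels of the members was not tested.

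Of the 12 members known from many tissues, 3 fell and 1 rose by the call, close to the 23.7% of all genes that fell and below the 23.0% that rose, and the log2 fold changes of the others ran from -7.82 to 1.54. Without labelled knockout 1, 7 fell and 2 rose, beside 31.6% and 33.1% of all genes, and 2 to 3 fell when any other sample was left out, beside 10.1% to 12.3%. *Spata7*, known from the connecting cilium of photoreceptors, read 321.27, 306.47 and 335.30 FPKM in controls and 4.67, 9.31 and 9.41 FPKM in the labelled knockouts, a fall of 6.20 ± 0.34 (SE) on the log2 scale with an adjusted p of 3.42e-05. *Tex2*, a lipid transfer protein of the endoplasmic reticulum, read 76.01, 77.45 and 92.90 FPKM and then 4.88, 10.32 and 11.21 FPKM, and fell by 4.09 ± 0.34 (SE). *Spata2l*, the paralog of *Spata2*, read 14.26, 14.14 and 14.24 FPKM and then 4.93, 4.29 and 4.41 FPKM, and fell by 2.42 ± 0.14 (SE). These 3 genes were lower in every labelled knockout than in every control, and *Spata2l* was as low in labelled knockout 1 as in the others.

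*Spata20* did not look like a gene of many tissues in these samples. It read 481.20, 516.24 and 507.60 FPKM in the adult controls and 0.05, 6.75 and 5.58 FPKM in the labelled knockouts, and at most 0.05 FPKM in the day 7 cells. Its log2 fold change was -7.82 ± 1.55 (SE) with an adjusted p of 0.0036, and without labelled knockout 1 it was -7.10 with an adjusted p of 1.71e-08. *Tex30* read 167.59, 173.01 and 160.91 FPKM and then 11.57, 51.92 and 73.25 FPKM, with labelled knockout 1 lowest again.

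*Tex10* and *Spata5*, both with parts in ribosome assembly, were closer to their control levels. *Tex10* read 34.92, 32.57 and 41.19 FPKM in controls and 13.67, 26.37 and 25.82 FPKM in the labelled knockouts, with a log2 fold change of -1.62 ± 0.26 (SE) and an adjusted p of 0.00145. *Spata5* read 21.34, 16.87 and 21.91 FPKM and then 8.01, 13.50 and 19.14 FPKM, with a change of -1.43 ± 0.29 (SE) and an adjusted p of 0.00379. The FPKM of *Spata5* in labelled knockout 3 lay within the range of the controls. Both changes were smaller on total counts, at -0.75 for *Tex10* and -0.55 for *Spata5*, with adjusted p of 0.0464 and 0.150. On that scaling the groups of *Spata5* overlapped.

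*Tex264* and *Tex261* changed sign with the scaling. *Tex264*, a receptor that delivers pieces of the endoplasmic reticulum to the lysosome, read 55.74, 58.13 and 56.13 FPKM in controls and 83.14, 96.07 and 89.17 FPKM in the labelled knockouts. Its log2 fold change was -0.18 ± 0.12 (SE) on TMM scaling, with an adjusted p of 0.201, and 0.68 on total counts, with an adjusted p of 0.00187. *Tex261*, another membrane protein of that organelle, read 54.38, 54.74 and 54.35 FPKM and then 48.67, 57.94 and 70.59 FPKM, with changes of -0.34 on TMM scaling and 0.53 on total counts.

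*Spata13*, *Spata5l1* and *Spata2* were higher in every labelled knockout than in every control on both scalings. *Spata13*, an exchange factor for the small GTPases Rac1 and Cdc42 at chr14:60485168-60764556, read 0.59, 0.23 and 0.32 FPKM in controls and 4.72, 5.05 and 4.30 FPKM in the labelled knockouts. The mean of 4.69 ± 0.38 FPKM (SD, n = 3) was 12.3 times the control mean of 0.38 ± 0.19 FPKM (SD, n = 3), and the gene rose by the call, with a log2 fold change of 2.60 ± 0.27 (SE) and an adjusted p of 0.000233. This call was lost without labelled knockout 2 or 3 and without control 2 or 3, while its change stayed between 2.43 and 2.91 when any 1 sample was left out.

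*Spata5l1*, an ATPase related to *Spata5*, read 1.07, 0.45 and 0.80 FPKM in controls and 3.28, 3.45 and 5.58 FPKM in the labelled knockouts, with a log2 fold change of 1.54 ± 0.39 (SE) and an adjusted p of 0.00975. *Spata2*, an adaptor that brings the deubiquitinase CYLD to the receptor complex of tumour necrosis factor, read 2.47, 2.19 and 2.29 FPKM and then 5.58, 7.41 and 8.77 FPKM, with a change of 0.76 ± 0.17 (SE) and an adjusted p of 0.00642. On total counts *Spata2* passed the call with a change of 1.63. Labelled knockout 1 was near the others for all 3 of these genes. *Spata2* and its paralog *Spata2l* therefore lay on opposite sides of their controls, at 241% to 379% and at 30.2% to 34.7% of the control mean. The Leydig, stroma and macrophage markers, 7 genes in each list, and the 6 endothelium markers all had log2 fold changes above 0 beside these 3 genes. So had 18 of the 20 Sertoli markers and 6 of the 7 peritubular myoid markers. The part of these cell types in the result was not tested.

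**Figure D3:**
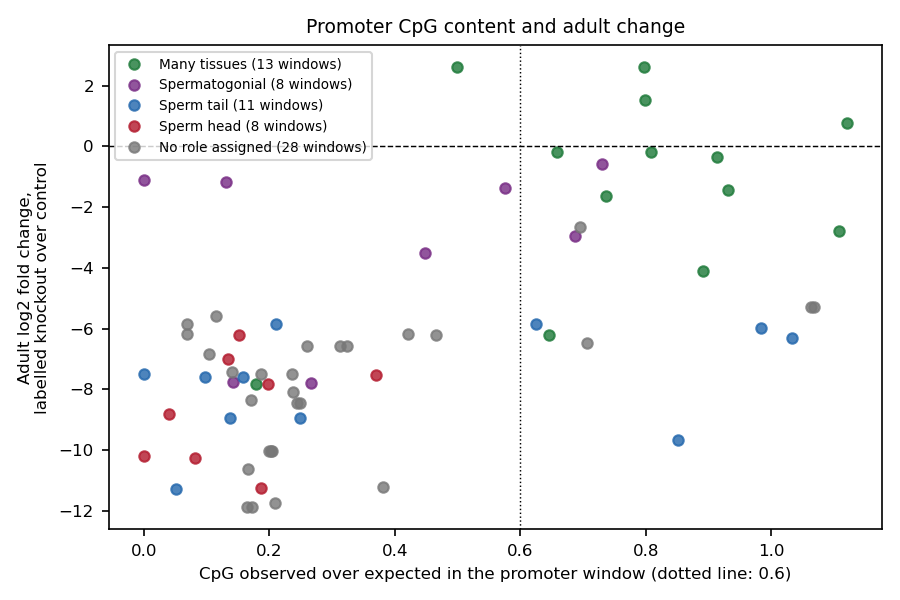
CpG observed over expected in each of the 68 promoter windows on the horizontal axis against the adult log2 fold change of the gene, labelled knockout over control, on the vertical axis, coloured by role, with genes of several windows drawn once for each. The 11 windows of many-tissue members at 0.6 or more range in change from -6.20 to 2.60, and the 8 windows of sperm head members all lie below 0.4 and below -6.

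In the day 7 Sertoli cells the members were mostly weak or absent. Of the 44 members in that table, 21 passed the filter on low values, and none of the other 23 exceeded 0.67 FPKM in any sample. The tested members were 11 of 12 from the many-tissue group, 4 of the 6 spermatogonial members in that table, 2 of 6 sperm tail members, 0 of 5 sperm head members and 4 of 15 with no role assigned. Together the 44 members took 0.0619% and 0.0599% of counts in the controls and 0.0530% and 0.0553% in the knockouts. Markers of spermatids summed to 1.03 to 2.16 FPKM, and Sertoli markers to 2907 and 2682 FPKM in controls and 1879 and 2179 FPKM in the knockouts. The markers of peritubular myoid cells, the contractile cells around the tubule, summed to 2515 and 2376 FPKM and then to 4115 and 4291 FPKM. Stroma markers went from 2165 and 2254 FPKM to 3975 and 3373 FPKM and Leydig markers from 156 and 161 FPKM to 302 and 214 FPKM, while all 9 spermatocyte markers tested had log2 fold changes below 0. No marker list had a gene past the call, and the part of these shifts in the results below was not tested.

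The day 7 knockouts were less alike than the controls, with a chi-square per degree of freedom between their counts of 34.3 against 2.65. Knockout 1 stood apart on the Sertoli cell gene *Cldn11*, at 14.01 FPKM against 150.35 FPKM in knockout 2 and 228.89 and 213.74 FPKM in the controls, so the counts that follow are also given without each knockout. None of the 21 tested members passed the thresholds in edgeR's quasi-likelihood test, where 0% of the 12880 genes tested did so in either direction. At an unadjusted p under 0.05, 1 member was lower and none was higher, beside 6.99% and 8.52% of all genes. DESeq2 called 0 members too, beside 0.171% of all genes lower and 0.807% higher, and limma called 0. At an adjusted p under 0.05, DESeq2 had 1 member lower and 0 higher, beside 1.5% and 3.01% of all genes. The median log2 fold change of the tested members was -0.10, beside -0.0039 for all genes. Both knockouts lay below both controls, after TMM scaling, for 8 members and above them for 1, where 26.1% and 24.8% of all genes did so. With knockout 1 as the only knockout, assumed to vary like the controls, 0 members passed both thresholds, beside 2.41% of all genes lower and 2.63% higher, and 6 were lower and 0 higher at an adjusted p under 0.05, beside 18.8% and 21% of all genes. With knockout 2 as the only one, again 0 passed both, beside 0.116% and 0.357%, and 2 were lower and 1 higher at that adjusted p, beside 11.7% and 9.74%.

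**Figure D4:**
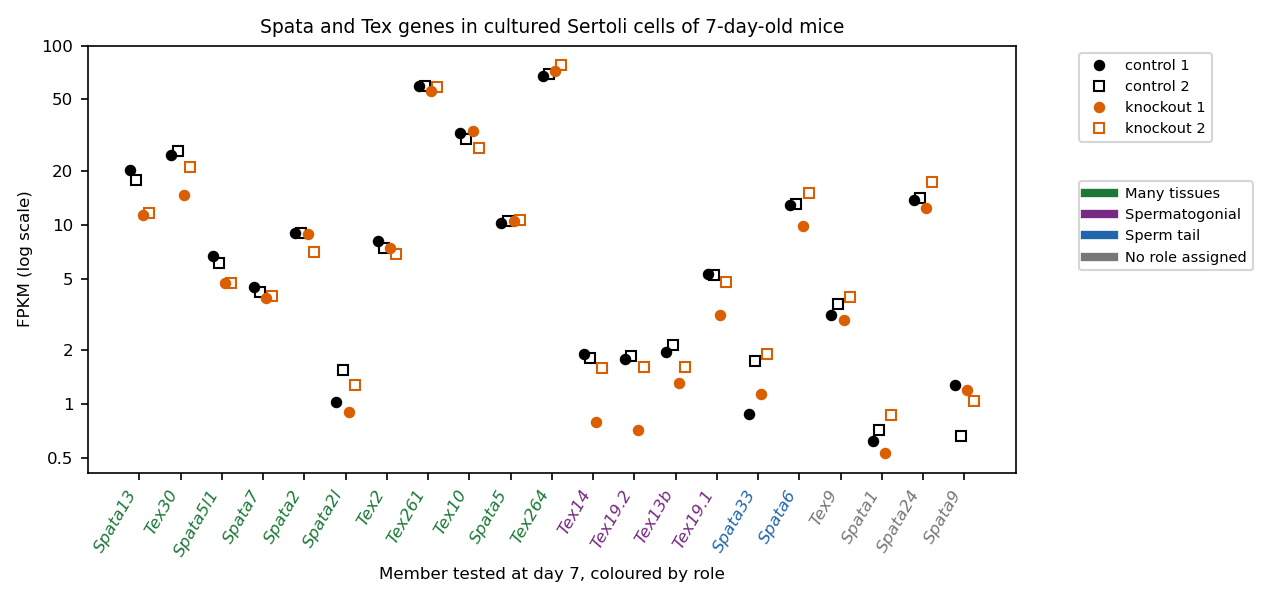
FPKM on a log axis of the 21 members tested in the day 7 Sertoli cells, with 1 point per sample, controls in black and knockouts in orange, ordered and coloured by role. For *Tex14*, *Tex19.2*, *Tex13b* and *Tex19.1* both knockouts lie below both controls, and knockout 1 lies farther down than knockout 2.

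*Spata13* had the smallest p of the members. It read 20.15 and 17.83 FPKM in the controls and 11.32 and 11.63 FPKM in the knockouts, so that both knockouts were near 60% of the control mean. The log2 fold change was -0.68 ± 0.09 (SE), with an unadjusted p of 0.00124 and an adjusted p of 0.132. DESeq2 gave it an adjusted p of 0.000549, and over the other tests and settings on all 4 samples its adjusted p reached 0.270. *Tex30*, *Spata5l1* and *Spata7* were the other many-tissue members with both knockouts below both controls on TMM-scaled counts. *Tex30* read 24.37 and 25.88 FPKM in controls and 14.64 and 21.02 FPKM in knockouts, and *Spata5l1* read 6.67 and 6.11 FPKM and then 4.74 and 4.73 FPKM. Their log2 fold changes were -0.46 ± 0.19 (SE) and -0.39 ± 0.18 (SE), with adjusted p of 0.357 and 0.382. With knockout 1 alone the change of *Tex30* was -0.73 with an adjusted p of 0.00165, and with knockout 2 alone it was -0.23 with an adjusted p of 0.135.

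The remaining genes of many tissues were close to their controls in the day 7 cells, and for *Spata2*, *Tex2* and *Tex261* both knockouts were lower in FPKM but not on TMM-scaled counts. *Tex264* read 67.92 and 69.11 FPKM in controls and 72.45 and 77.96 FPKM in knockouts, the one tested member with both knockouts above both controls, at a log2 fold change of 0.17 ± 0.08 (SE) and an adjusted p of 0.398. *Tex261* read 59.30 and 59.39 FPKM and then 55.62 and 59.03 FPKM, *Tex10* read 32.32 and 30.09 FPKM and then 33.18 and 26.86 FPKM, and *Spata5* read 10.16 and 10.49 FPKM and then 10.42 and 10.56 FPKM. For *Spata2*, the controls read 9.02 and 8.93 FPKM and the knockouts 8.82 and 7.06 FPKM. *Spata7* went from 4.49 and 4.23 FPKM to 3.88 and 3.99 FPKM, *Tex2* from 8.11 and 7.45 FPKM to 7.41 and 6.83 FPKM, and *Spata2l* from 1.02 and 1.54 FPKM to 0.90 and 1.27 FPKM. The log2 fold changes of these 8 genes lay between -0.15 and 0.17.

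All 4 spermatogonial members that could be tested at day 7 read lower in both knockouts than in both controls, and none passed the test. Of all genes tested, 26.1% had both knockouts below both controls on TMM-scaled counts. *Tex14*, at chr11:87405013-87555823, read 1.89 and 1.80 FPKM in controls and 0.79 and 1.58 FPKM in knockouts. *Tex19.1* read 5.28 and 5.22 FPKM and then 3.12 and 4.80 FPKM, *Tex19.2* read 1.77 and 1.84 FPKM and then 0.71 and 1.60 FPKM, and *Tex13b* read 1.95 and 2.14 FPKM and then 1.30 and 1.60 FPKM. Knockout 1 was the lowest sample for each of the 4. Their log2 fold changes lay between -0.62 and -0.37, with adjusted p from 0.423 to 0.554. With knockout 1 as the only knockout, the log2 fold changes of *Tex14*, *Tex19.2*, *Tex19.1* and *Tex13b* were -1.10, -1.30, -0.71 and -0.60. With knockout 2 as the only one they were -0.25, -0.14, -0.098 and -0.32. The 14 spermatogonium markers summed to 226 and 219 FPKM in the controls and 156 and 155 FPKM in the knockouts. Most of each sum was *Uchl1*, at 164.85 and 148.82 FPKM and then 119.76 and 106.98 FPKM. Of the 13 markers tested, 12 had log2 fold changes below 0. Germ cell RNA was thus present in these cultures, and its part in the levels of the 4 genes was not tested.

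*Spata6* and *Spata33* were the tail members that could be tested. *Spata6* read 12.82 and 12.99 FPKM in controls and 9.78 and 15.08 FPKM in knockouts, which lay on either side of the controls. *Spata33* read 0.88 and 1.74 FPKM and then 1.14 and 1.90 FPKM, on only 21 and 21 counts in the controls and 14 and 21 counts in the knockouts. *Spata24*, with 13.75 and 14.02 FPKM in controls and 12.42 and 17.20 FPKM in knockouts, had knockouts on either side like *Spata6*. In each of these 3 genes knockout 1 was lower than knockout 2. *Tex9*, *Spata9* and *Spata1* were at 3.97 FPKM or less in every sample, with log2 fold changes of 0.040, 0.22 and 0.071. Each of these 3 changed sign with the sample left out, from -0.13 to 0.19 for *Tex9*, from -0.092 to 0.62 for *Spata9* and from -0.39 to 0.42 for *Spata1*.

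The 21 members tested in both tables are set side by side without a test, since the tables were normalized separately and hold different material. For 5 of them, *Tex14*, *Tex19.1*, *Tex19.2*, *Spata7* and *Tex30*, the groups did not overlap in either table and the knockouts were lower in both, on TMM-scaled counts, beside 9.47% of the 12378 genes tested in both. On total counts the adult values of *Tex19.1* and *Tex19.2* overlapped. For *Spata13*, *Spata5l1* and *Tex264* the groups did not overlap in either table and the directions were opposite, beside 18.3% of the 12378 genes, a share that 3 of 21 members does not exceed. The day 7 log2 fold change of *Spata13* was -0.68 and the adult one 2.60, and those of *Spata5l1* were -0.39 and 1.54. *Tex264* had 0.17 and -0.18, and on total counts its adult value was higher, not lower. *Spata33*, *Spata9*, *Spata7*, *Spata6*, *Spata24* and *Spata1* lay farthest apart, with day 7 changes from -0.23 to 0.22 and adult changes from -6.32 to -5.30.

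**Figure D5:**
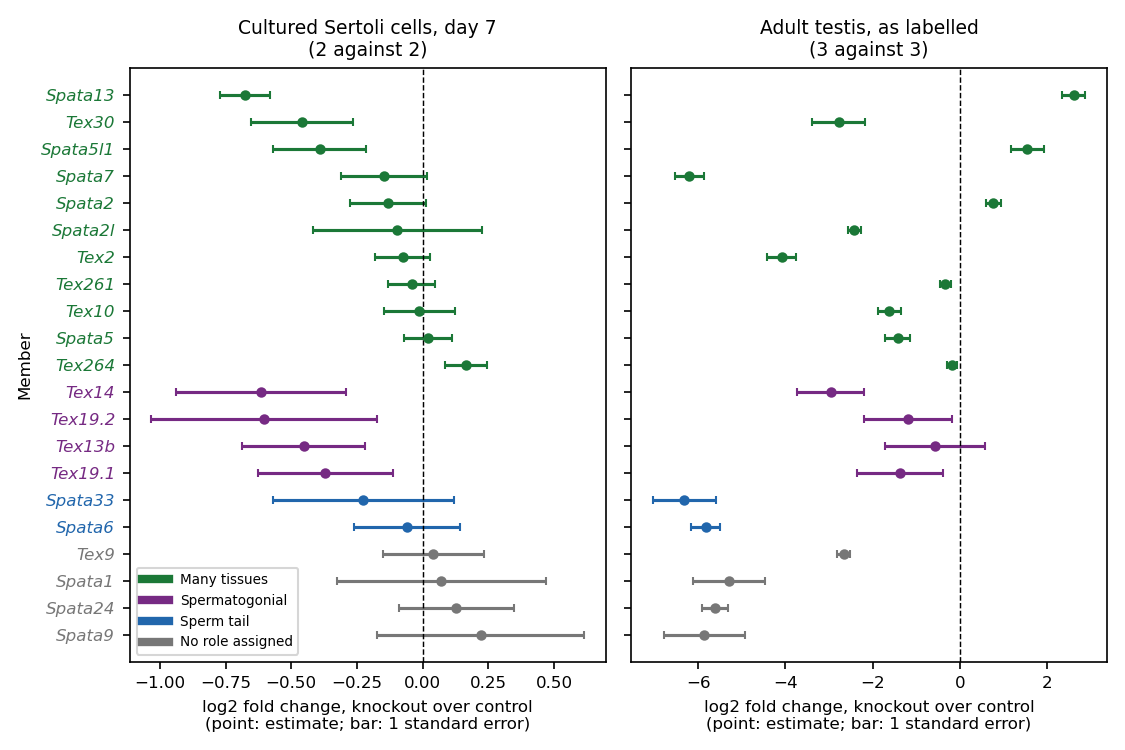
Log2 fold change, knockout over control, of the 21 members tested in both tables, with the day 7 Sertoli cells on the left and adult testis on the right, points for the estimate and bars for 1 standard error, coloured by role. The axes differ in range, and *Spata13* lies at -0.68 on the left and 2.60 on the right.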

How the data were processed

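According to the labels and the study's methods, the authors enriched RNA with oligo(dT) and aligned reads with HISAT to the GRCm38.p6 genome and with Bowtie2 to reference genes, and for day 7 quantified them by RSEM. Versions and the use of strand are not given in the sources used here. The authors deposited estimated counts, without normalization, and 2 normalized units, FPKM and TPM; the deposited TPM was not used. In the adult file, 20 columns that hold no values were left out.

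The members and role lists were chosen with earlier results of these data known. Estimated counts were rounded. A gene was tested if its FPKM was 0.5 or more in at least 2 samples at day 7 (12880 genes) or 3 in adult testis (15919 genes). Each table was fitted alone by edgeR's quasi-likelihood test with TMM scaling and Benjamini-Hochberg adjustment over all genes tested. A call needed a log2 fold change over 1 in size and an adjusted p under 0.001. The standard error was taken as the size of the fold change over the square root of F. TMM factors were 0.984 to 1.02 at day 7, and in adult testis 0.710 to 0.761 in controls and 1.27 to 1.42 in samples labelled as knockout. The fit was tested on simulated data.

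Values in every sample are given for the 4 members of each group with the highest adult control FPKM, the many-tissue members tested at day 7, the 5 largest rises and falls past the call without overlap (at day 7 the 5 smallest p), *Tex14* and *Tex19.1*, and *Rnf20*. *Tex19.2*, *Tex16*, *Tex13d*, *Tex9*, *Spata31*, *Spata31d1c* and the other members given by name were added after their values were seen. Alternatives were median-ratio and total-count scaling, no filter, a mean FPKM of at least 1, DESeq2, limma on log2(FPKM + 0.1) and log2(FPKM + 1), another threshold, a replicate block and each sample left out. Where that leaves 1 sample in a group, it is assumed to vary like the other group. Positions and promoters are from RefSeq on GRCm38.p6. Fits used R 4.3.3 with edgeR 4.0.16, limma 3.58.1 and DESeq2 1.42.0, and all other steps used scipy 1.17.1, pandas 2.3.3 and numpy 2.4.6 under Python 3.11.15.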

Additional observations from a re-analysis of the deposited data

Results flagged for a closer look

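For 3 members every knockout sample lay on one side of the controls in the day 7 cells and on the other side in adult testis, on TMM-scaled counts, and the difference between the tables was not tested. *Spata13* had a log2 fold change of -0.68 at day 7 and 2.60 in adult testis. *Spata5l1* had -0.39 at day 7 and 1.54 in adult testis. *Tex264* had 0.17 at day 7 and -0.18 in adult testis, where total-count scaling gave 0.68. The tables compare cultured cells with whole testis. In adult testis *Rnf20* was not lower in the samples labelled as knockout, while spermatid markers summed to 5.24 to 188 FPKM in them and to 132308 to 201661 FPKM in the controls. Over all 12378 genes tested in both tables, 18.3% met the same criterion of opposite directions, so 3 of 21 members is not above that share.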

How the results depend on the processing

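The count of 0 members called at day 7 was the same under all 13 alternatives. Over all genes at day 7 that count was 0, with 126 by DESeq2 and 0 to 650 when a sample was left out; the members' median of -0.097 was -0.088 to -0.33 when a sample was left out. In adult testis, the 33 members that fell were 54 by DESeq2, 55 at an adjusted p under 0.05, and 14 to 54 when a sample was left out, and the 1 that rose was 2 by limma with a pseudocount of 0.1, 3 by limma with a pseudocount of 1, 2 by total-count scaling, 3 at an adjusted p under 0.05, and 0 to 2 when a sample was left out. The members' adult median of -6.56 was -5.20 by limma with a pseudocount of 1, whose scale understates low genes, and stayed from -7.04 to -5.68 otherwise. Over all genes, 3660 rose and 3772 fell; these were 5867 and 2468 by limma with a pseudocount of 0.1, 5689 rose by limma with a pseudocount of 1, 5836 and 2252 by total-count scaling, 6503 and 6466 at an adjusted p under 0.05, and 1082 to 5270 and 1613 to 5031 when a sample was left out.

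With the replicate block, 0 members and 0 genes passed both thresholds in adult testis in either direction, and the members' medians were -0.091 at day 7 and -7.04 in adult testis. Samples share only a number: deviations of same-numbered adult samples correlated by 0.0107, 0.0116 and 0.0247, although each correlated best with its own number, and those of day 7 by 0.0358. The block leaves fewer degrees of freedom, and the cause of the lost calls was not otherwise tested.

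Of single members, *Spata5* at day 7 reversed to -0.019 by total-count scaling, and *Spata33* at day 7 to 0.23 and 0.13 by limma with pseudocounts of 0.1 and 1. In adult testis *Tex261* reversed to 0.10, 0.10 and 0.53 and *Tex264* to 0.66, 0.65 and 0.68 by limma with pseudocounts of 0.1 and 1 and by total-count scaling, and *Tex13b* to 0.32 by total-count scaling and from -1.40 to 0.13 when a sample was left out. At day 7, leaving out a sample gave ranges of -0.31 to 0.026 for *Spata2*, -0.34 to 0.20 for *Spata2l*, -0.00036 to 0.039 for *Spata5*, -0.18 to 0.14 for *Tex10*, -0.12 to 0.033 for *Tex261*, -0.53 to 0.024 for *Spata33*, -0.36 to 0.19 for *Spata6* and -0.10 to 0.33 for *Spata24*. With 2 samples a group at day 7, the tools differed in what they called. The fitted fold changes of members at 0 to 3 counts in the samples labelled as knockout depend on the prior count, so ratios of counts are given for those named.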
